A study of Homo sapiens with 6 samples.

Results

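The genes described here are 60 cell-cycle and mitotic genes in HaCaT cells, an immortalized human keratinocyte line. They were taken as the rows of the deposited expression table whose name equalled a listed symbol and that reached at least 1 RPKM (reads scaled to transcript length and library total) in at least 1 library. All 60 listed genes were found and kept, of 27945 genes in the table and 12925 that passed the same minimum. They divide into 27 genes of S phase, 30 of G2 and mitosis (G2/M) and 3 of G1. No gene lay near the minimum: the lowest value of any of them was 2.0 RPKM, for CDC25C in a WT IL-1α library.

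The libraries were made from p38α-KO cells, labelled MAPK14-null, and from WT cells of the same line. Cells of each genotype received IL-1α in PBS for 4 h (2 libraries, replicates 1 and 2) or PBS alone for 4 h (1 library, called unstimulated). Stranded mRNA libraries were sequenced in bulk. The labels do not describe the edit, and they do not say whether the KO cells were 1 clone or whether replicates were separate cultures, so a p-value measures only the spread between these libraries. MAPK14, the gene of the p38α kinase, was still transcribed in the KO cells: it read 11.0 and 7.41 RPKM in the KO IL-1α libraries and 11.3 RPKM in the unstimulated KO library, against 13.3 and 14.8 RPKM in the WT IL-1α libraries and 14.4 RPKM in the unstimulated WT library. The log2 difference of KO from WT under IL-1α was -0.61 (limma with Benjamini-Hochberg adjustment, adjusted p = 0.301), so the transcript level does not by itself check the labels.

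Cells enter S phase when cyclin E and CDK2 release E2F factors, which drive transcription of the genes that load the MCM helicase, supply nucleotides and copy DNA. Later in the cycle, B-MYB and FOXM1 drive a second wave of genes for the mitotic cyclins, the spindle and the checkpoint. CDK inhibitors such as p21 (CDKN1A) hold this sequence back. In a growing culture the transcripts of both waves therefore mark cycling cells, and in RNA from whole cultures fewer cells in a phase and less RNA per cell cannot be told apart. HaCaT cells carry mutant p53, the usual activator of CDKN1A.

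Both waves were higher in KO cells than in WT cells after IL-1α, and by about the same amount. The median log2 difference was 0.46 over the 27 S-phase genes (26 higher, 1 lower) and 0.45 over the 30 G2/M genes (30 higher), against 0.09 over all genes tested. The phase medians correspond to 1.38-fold and 1.37-fold on a log2(RPKM + 0.5) scale, and they stood 0.37 and 0.36 above the median of all genes as deposited and 0.36 and 0.35 above it after median-of-ratios rescaling of the libraries. Of the 60, 56 lay above 0, as did 61.1% of all genes. No single gene of the 60 passed limma's test after Benjamini-Hochberg adjustment over all 12925 genes, in a comparison that called 0.155% of all genes. At an unadjusted p under 0.05, 27 of the 60 were higher in KO (13 of S phase and 14 of G2/M), against 9.97% of all genes, and 1, CDKN1A, was lower, against 4.93% of all genes. For 48 of the 60 both KO IL-1α libraries lay above both WT IL-1α libraries, an order that 32.4% of all genes had.

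**Figure D1:**
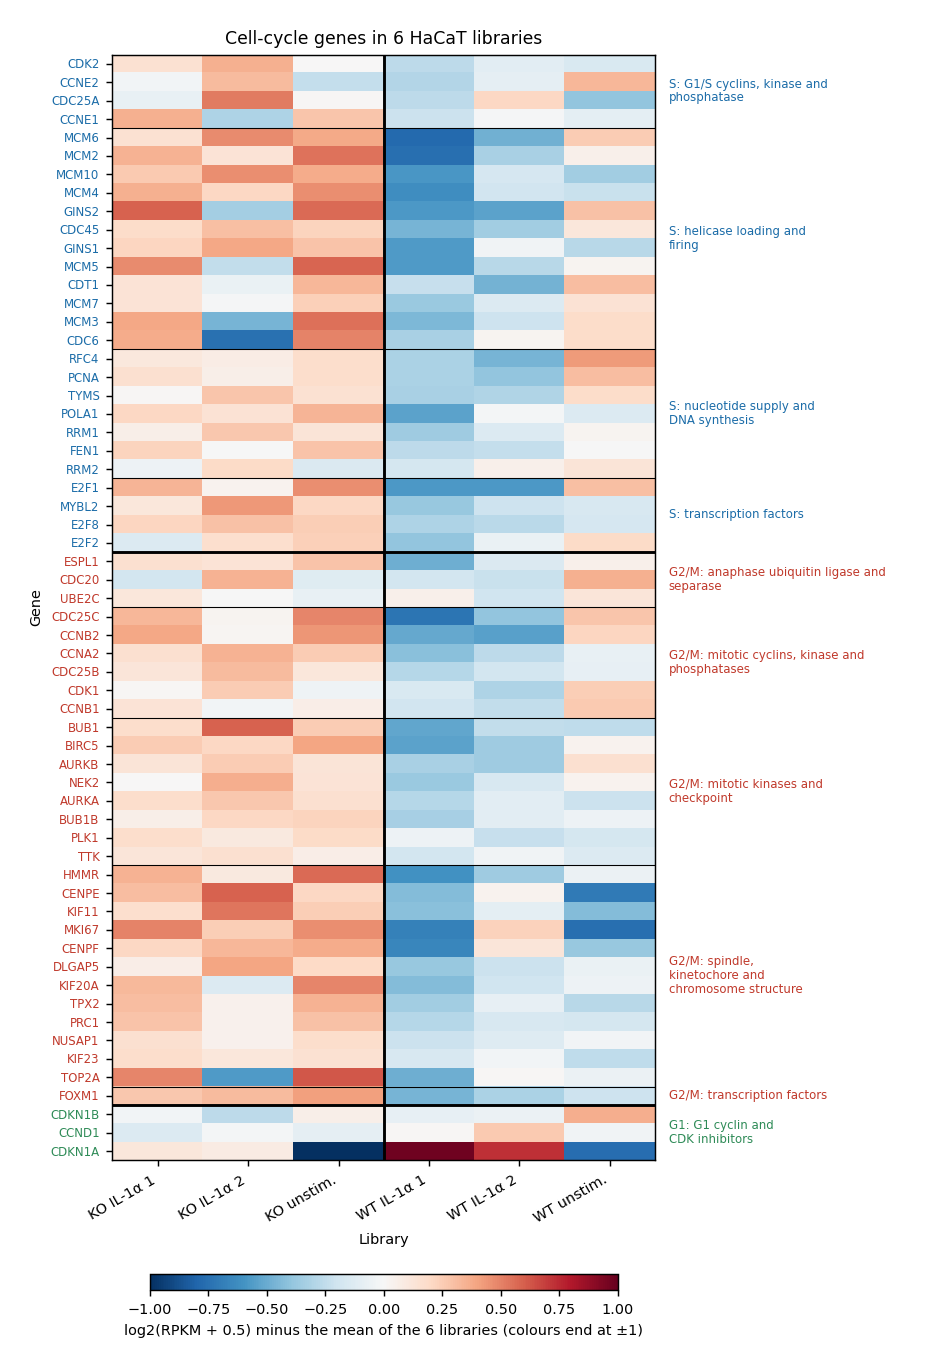
Level of each of the 60 genes (rows, grouped by phase and role) in the 6 libraries (columns, KO left of WT), as log2(RPKM + 0.5) minus the gene's mean over the 6 libraries, with red above and blue below that mean. Most rows are red in the 3 KO columns and blue in the 2 WT IL-1α columns, and CDKN1A in the bottom row runs the other way under IL-1α.

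The promoters of the 2 waves differ in their known control words, and windows from RefSeq (GRCh38.p14, 250 bases before to 50 after the start of each gene) were matched for 48 of the 60 genes. Those without one were UBE2C, CCNE2, CDK2, E2F8, FOXM1, MCM5, TTK, MCM4, AURKA, CCND1, TPX2 and BIRC5. The motifs were searched on both strands. The E2F motif was taken as TTTCCCGC, TTTCGCGC, TTTGCCGC or TTTGGCGC, which can overlap one another on opposite strands. The CHR, an element of mitotic promoters, was taken as TTTGAA or TTCGAA, and the CCAAT box, bound by NF-Y, as CCAAT. An E2F word stood in 14 of 22 S-phase windows (63.6%) and 2 of 24 G2/M windows (8.33%), against 3.33% of all 27305 promoters. A CHR word stood in 2 of 22 S-phase windows (9.09%) and 16 of 24 G2/M windows (66.7%), against 16.6% of all promoters, and a CCAAT box in 63.6%, 83.3% and 35.7% of the same sets. A match is a description of letters and not evidence of binding.

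The 160 bases before the start are shown for 4 genes, the 2 of each phase with the largest KO difference among those whose stretch holds the motif of its wave. Capitals mark E2F words and CCAAT boxes in the S-phase genes MCM6 and E2F1, and CHR words and CCAAT boxes in the G2/M genes CCNB2 and HMMR, read 5′ to 3′ on the strand of the gene (GRCh38.p14).
MCM6 chr2:135876444-135876603, minus strand: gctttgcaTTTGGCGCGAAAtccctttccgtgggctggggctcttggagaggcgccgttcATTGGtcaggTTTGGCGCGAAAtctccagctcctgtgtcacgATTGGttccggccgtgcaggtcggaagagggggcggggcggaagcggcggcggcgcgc
E2F1 chr20:33686386-33686545, minus strand: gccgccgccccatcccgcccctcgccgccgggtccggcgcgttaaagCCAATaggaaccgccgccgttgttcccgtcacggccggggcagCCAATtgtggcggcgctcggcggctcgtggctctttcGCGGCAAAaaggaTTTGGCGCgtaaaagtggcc
CCNB2 chr15:59104986-59105145, plus strand: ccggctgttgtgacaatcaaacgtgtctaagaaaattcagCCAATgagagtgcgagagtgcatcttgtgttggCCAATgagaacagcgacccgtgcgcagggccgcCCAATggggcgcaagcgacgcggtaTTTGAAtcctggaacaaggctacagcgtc
HMMR chr5:163460472-163460631, plus strand: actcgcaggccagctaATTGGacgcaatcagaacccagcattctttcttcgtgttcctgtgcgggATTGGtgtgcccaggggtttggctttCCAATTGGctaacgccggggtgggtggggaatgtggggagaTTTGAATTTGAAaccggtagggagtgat
MCM6 holds 2 E2F stretches of 2 overlapping words each, E2F1 holds 2 separate words, CCNB2 holds 1 CHR word after 3 CCAAT boxes, and HMMR holds 2 CHR words in a row. In the comparison of KO with WT under IL-1α, genes with and without the motif of their wave had medians of 0.46 (14 with) and 0.45 (8 without) in S phase and of 0.43 (16 with) and 0.49 (8 without) in G2/M. Without stimulation the medians of KO against WT were 0.22 and 0.20 in S phase and 0.39 and 0.20 in G2/M. The WT response to IL-1α was -0.50 with and -0.22 without an E2F word in S phase, and -0.15 with and -0.28 without a CHR word in G2/M. These differences were not tested. Genes with and without a motif were not matched for transcript length. Across the 30 G2/M genes Spearman's rho with length was 0.80 for the unstimulated comparison and 0.66 for the WT response.

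The 12 genes that load and fire the replicative helicase had a median log2 difference of 0.62, and 11 of them were higher in KO under IL-1α. Without KO IL-1α replicate 1 their median was 0.45, below the 0.51 of all S-phase genes. Without WT IL-1α replicate 2 it was 0.70, against 0.52. MCM6, a subunit of the MCM2-7 helicase ring (chromosome 2, 136597196 to 136634047, minus strand in hg19), read 30.6 and 38.3 RPKM in the KO IL-1α libraries and 35.8 RPKM in the unstimulated KO library, against 15.8 and 19.5 RPKM in the WT IL-1α libraries and 32.8 RPKM in the unstimulated WT library. Under IL-1α the KO and WT libraries did not overlap, while the unstimulated WT library lay among the KO libraries. Its log2 difference of KO from WT under IL-1α was 0.94 ± 0.19 (SE), the largest of the 60 (limma, adjusted p = 0.171).

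MCM2, another ring subunit, read 59.1 and 51.1 RPKM in the KO IL-1α libraries and 67.9 RPKM in the unstimulated KO library, against 27.3 and 37.1 RPKM in the WT IL-1α libraries and 48.1 RPKM in the unstimulated WT library, with every KO library above every WT library and a log2 difference of 0.78 ± 0.20 under IL-1α (limma, adjusted p = 0.2). MCM10, which helps to fire the loaded helicase, read 20.2 and 23.3 RPKM in the KO IL-1α libraries and 21.9 RPKM in the unstimulated KO library, against 11.1 and 14.9 RPKM in the WT IL-1α libraries and 13.1 RPKM in the unstimulated WT library. Its difference under IL-1α was 0.73 ± 0.20 (limma, adjusted p = 0.217), and here too the genotypes did not overlap in any library. The ring subunit MCM4 read 86.1 and 77.7 RPKM in the KO IL-1α libraries and 93.0 RPKM in the unstimulated KO library, against 43.6 and 58.7 RPKM in the WT IL-1α libraries and 57.6 RPKM in the unstimulated WT library. It too separated by genotype in all 6 libraries, with a log2 difference of 0.69 under IL-1α. MCM7, the most abundant of the group, read 112 and 102 RPKM in the KO IL-1α libraries and 121 RPKM in the unstimulated KO library, against 79.0 and 92.8 RPKM in the WT IL-1α libraries and 113 RPKM in the unstimulated WT library. The unstimulated WT level of MCM7 stood among the KO levels, and its log2 difference under IL-1α was 0.32. Of the others, the GINS subunits GINS2 and GINS1 differed by 0.68 and 0.60, their partner CDC45 by 0.65, MCM5 and MCM3 by 0.53 and 0.29, and the loading factors CDT1 and CDC6 by 0.39 and -0.04 on the log2 scale. Leaving out KO replicate 1 or 2 gave 0.21 and 1.14 for GINS2 and 0.17 and 0.90 for MCM5, and leaving out 1 library gave 0.34 to 0.86 for GINS1.

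Among the 7 genes of nucleotide supply and DNA synthesis the median log2 difference under IL-1α was 0.45, and all 7 were higher in KO. PCNA, the sliding clamp of the DNA polymerases, read 281 and 262 RPKM in the KO IL-1α libraries and 284 RPKM in the unstimulated KO library, against 202 and 191 RPKM in the WT IL-1α libraries and 312 RPKM in the unstimulated WT library. The WT IL-1α libraries lay below the other 4, and unstimulated WT was the highest. Its log2 difference under IL-1α was 0.47 ± 0.16 (limma, adjusted p = 0.286), and PCNA-AS1, on the other strand within the gene, was listed at a mean of 137 RPKM, so the 2 may share reads. RRM1, the large subunit of ribonucleotide reductase, read 80.5 and 93.2 RPKM in the KO IL-1α libraries and 84.2 RPKM in the unstimulated KO library, against 60.1 and 70.1 RPKM in the WT IL-1α libraries and 78.6 RPKM in the unstimulated WT library. Every KO library exceeded every WT library for RRM1, by a log2 difference of 0.41 under IL-1α. The small subunit RRM2 differed by 0.14, the clamp loader subunit RFC4 by 0.48, thymidylate synthase (TYMS) by 0.46, polymerase α (POLA1) by 0.45 and the flap nuclease FEN1 by 0.36. RFC4 overlaps EIF4A2 on the other strand, which averaged 161 RPKM against 32.1 RPKM for RFC4.

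The transcription factors of the S-phase wave were all higher in KO under IL-1α. E2F1, an activator of S-phase genes (chromosome 20, 32263292 to 32274210, minus strand in hg19), read 14.3 and 11.4 RPKM in the KO IL-1α libraries and 15.6 RPKM in the unstimulated KO library, against 7.34 and 7.32 RPKM in the WT IL-1α libraries and 13.9 RPKM in the unstimulated WT library. The WT IL-1α pair was nearly identical and lay below the other 4 libraries, with a log2 difference of 0.76 ± 0.18 (limma, adjusted p = 0.189). The B-MYB gene MYBL2 differed by 0.57, the late repressor E2F8 by 0.54 and E2F2 by 0.25. The 4 genes of the G1/S switch had a median of 0.29, or 0.14 without WT IL-1α replicate 1 and 0.52 without KO IL-1α replicate 1: CDK2 differed by 0.44, cyclins CCNE2 and CCNE1 by 0.34 and 0.14, and the phosphatase CDC25A by 0.25.

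FOXM1, the factor that drives mitotic genes (chromosome 12, 2966847 to 2986321, minus strand in hg19), was the gene of the 60 that rose in KO past the adjusted threshold in the additive fit with all libraries and the filter of 1 RPKM in at least 1 library; other settings called other genes too. It read 55.7 and 57.4 RPKM in the KO IL-1α libraries and 61.4 RPKM in the unstimulated KO library, against 33.2 and 36.8 RPKM in the WT IL-1α libraries and 39.8 RPKM in the unstimulated WT library. The 3 KO libraries lay within 55.7 to 61.4 RPKM and above the 3 WT libraries, of 33.2 to 39.8 RPKM. In an additive fit, which uses all 6 libraries with 1 term for genotype and 1 for IL-1α and assumes the same genotype difference in both states, its log2 difference was 0.66 ± 0.13 (SE; limma, adjusted p = 0.0381). That fit called 1.34% of all genes as higher in KO. Without WT IL-1α replicate 1, WT IL-1α replicate 2 or KO IL-1α replicate 1 limma's adjusted p was 0.288, 0.0997 or 0.118, with a difference of 0.62 to 0.70. It was 0.0707 with no filter on low values, 0.0561 with no variance trend and 0.0641 with the replicate number as a block. ITFG2, which overlaps FOXM1 on the other strand, averaged 10.1 RPKM, and its part in the FOXM1 value was not tested.

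Several genes came close to the threshold in the additive fit: HMMR, a spindle-associated protein, at a log2 difference of 0.68 (limma, adjusted p = 0.0506), MCM10 at 0.73 (adjusted p = 0.0511) and MCM4 at 0.69 (adjusted p = 0.0609). In the same fit 57 of the 60 lay above 0, as did 56.2% of all genes, and 34 had an unadjusted p under 0.05 in the direction of KO (14 of S phase, 20 of G2/M), as did 13.9% of all genes, while 1, CDKN1A, had one in the other direction, as did 8.71%. All 3 KO libraries exceeded all 3 WT libraries for 30 of the 60, 10 of S phase and 20 of G2/M, and for 15.7% of all genes. For none of the 60 did the opposite order occur, which 8.86% of all genes had.

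**Figure D2:**
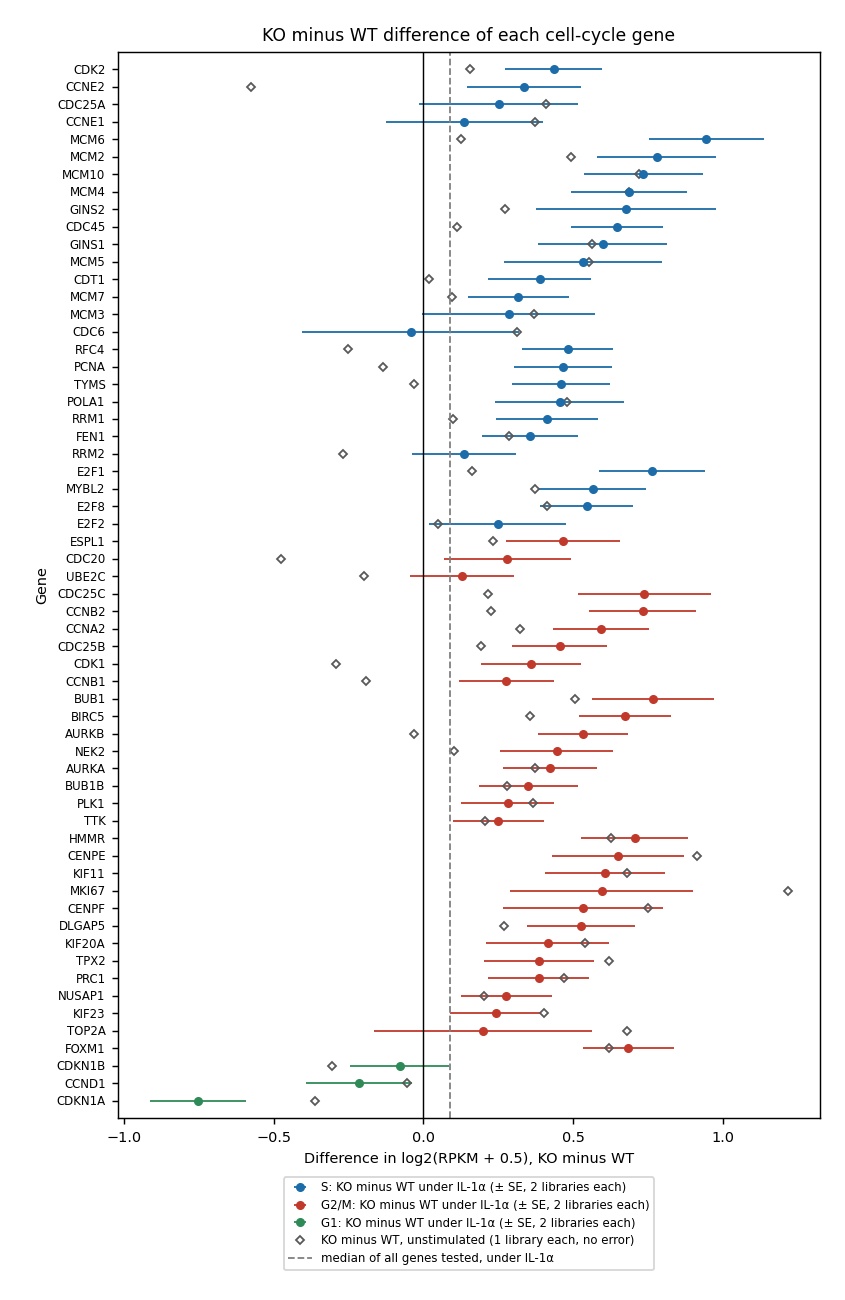
Difference in log2(RPKM + 0.5) of KO from WT for each gene under IL-1α (filled points with SE bars, 2 libraries per genotype) and without stimulation (open diamonds, 1 library per genotype). The filled points lie right of 0 for 56 of the 60 genes and mostly right of the dashed median of all genes, 0.09, and the diamonds scatter more widely, from -0.58 for CCNE2 to 1.22 for MKI67.

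The mitotic cyclins, their kinase and its phosphatases had a median log2 difference of 0.52 under IL-1α, with all 6 higher in KO. Cyclin B2 (CCNB2, chromosome 15, 59397284 to 59417244, plus strand in hg19) read 93.4 and 72.6 RPKM in the KO IL-1α libraries and 97.2 RPKM in the unstimulated KO library, against 49.9 and 48.8 RPKM in the WT IL-1α libraries and 83.0 RPKM in the unstimulated WT library. The WT IL-1α pair agreed closely and was the lowest, and the log2 difference was 0.73 ± 0.18 (limma, adjusted p = 0.194). CDC25C, a phosphatase that activates CDK1 at mitotic entry and the least abundant of the group, read 4.69 and 3.71 RPKM in the KO IL-1α libraries and 5.31 RPKM in the unstimulated KO library, against 2.0 and 2.65 RPKM in the WT IL-1α libraries and 4.50 RPKM in the unstimulated WT library. Its difference was 0.74 ± 0.22 (limma, adjusted p = 0.243), from as few as 63 reads in WT IL-1α replicate 1. Cyclin B1 (CCNB1) read 124 and 110.4 RPKM in the KO IL-1α libraries and 118 RPKM in the unstimulated KO library, against 98.2 and 94.6 RPKM in the WT IL-1α libraries and 135 RPKM in the unstimulated WT library. The unstimulated WT library was the highest for CCNB1, and the difference under IL-1α was 0.28. Cyclin A2 (CCNA2) differed by 0.59, CDC25B by 0.45 and the kinase CDK1 by 0.36.

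Mitotic kinases and checkpoint genes had a median of 0.43, with 8 of 8 higher. BUB1, a kinase of the spindle checkpoint, read 26.7 and 35.7 RPKM in the KO IL-1α libraries and 28.2 RPKM in the unstimulated KO library, against 16.3 and 19.8 RPKM in the WT IL-1α libraries and 19.7 RPKM in the unstimulated WT library. The genotypes did not overlap in any library, and the log2 difference under IL-1α was 0.77 ± 0.20 (limma, adjusted p = 0.21), the largest of the G2/M genes. Survivin (BIRC5), of the chromosomal passenger complex, differed by 0.67 and its kinase AURKB by 0.53. The other kinases differed by 0.45 (NEK2), 0.42 (AURKA), 0.35 (BUB1B), 0.28 (PLK1) and 0.25 (TTK).

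For the 12 genes of spindle, kinetochore and chromosome structure the median was 0.47 (0.28 without WT IL-1α replicate 1), and 12 of 12 were higher in KO under IL-1α. HMMR (chromosome 5, 162887517 to 162918953, plus strand in hg19) read 33.2 and 27.7 RPKM in the KO IL-1α libraries and 38.7 RPKM in the unstimulated KO library, against 16.8 and 20.2 RPKM in the WT IL-1α libraries and 24.9 RPKM in the unstimulated WT library. The 3 KO libraries lay above the 3 WT libraries, with a log2 difference of 0.71 ± 0.18 under IL-1α (limma, adjusted p = 0.2). MKI67, the gene of the Ki-67 proliferation antigen, read 99.8 and 83.5 RPKM in the KO IL-1α libraries and 97.2 RPKM in the unstimulated KO library, against 43.8 and 82.6 RPKM in the WT IL-1α libraries and 41.5 RPKM in the unstimulated WT library. WT IL-1α replicate 2 stood at the level of KO IL-1α replicate 2, far from the other 2 WT libraries, and the difference was 0.60 ± 0.31 (limma, adjusted p = 0.411), or 0.14 without WT IL-1α replicate 1 and 1.05 without replicate 2. TOP2A, the topoisomerase that separates replicated chromosomes, read 168 and 80.7 RPKM in the KO IL-1α libraries and 184 RPKM in the unstimulated KO library, against 85.1 and 121 RPKM in the WT IL-1α libraries and 115 RPKM in the unstimulated WT library. Its KO replicates differed more than the genotypes did, and the difference of 0.20 ± 0.36 (limma, adjusted p = 0.827) does not hold up against that spread.

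The motors KIF11, KIF20A and KIF23 differed by 0.61, 0.41 and 0.24, and the kinetochore proteins CENPE and CENPF by 0.65 and 0.53. Leaving out 1 library gave 0.42 to 0.88 for CENPE and 0.14 to 0.92 for CENPF. The spindle factors DLGAP5, TPX2, PRC1 and NUSAP1 differed by 0.53, 0.39, 0.38 and 0.28. The 3 anaphase genes had a median of 0.28, or 0.45 without KO IL-1α replicate 1. UBE2C, the E2 enzyme of the anaphase-promoting complex, read 206 and 189.5 RPKM in the KO IL-1α libraries and 181 RPKM in the unstimulated KO library, against 197 and 166 RPKM in the WT IL-1α libraries and 207 RPKM in the unstimulated WT library. The libraries of the 2 genotypes overlapped, and the difference was 0.13. Its activator CDC20 differed by 0.28 and separase (ESPL1) by 0.47.

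**Figure D3:**
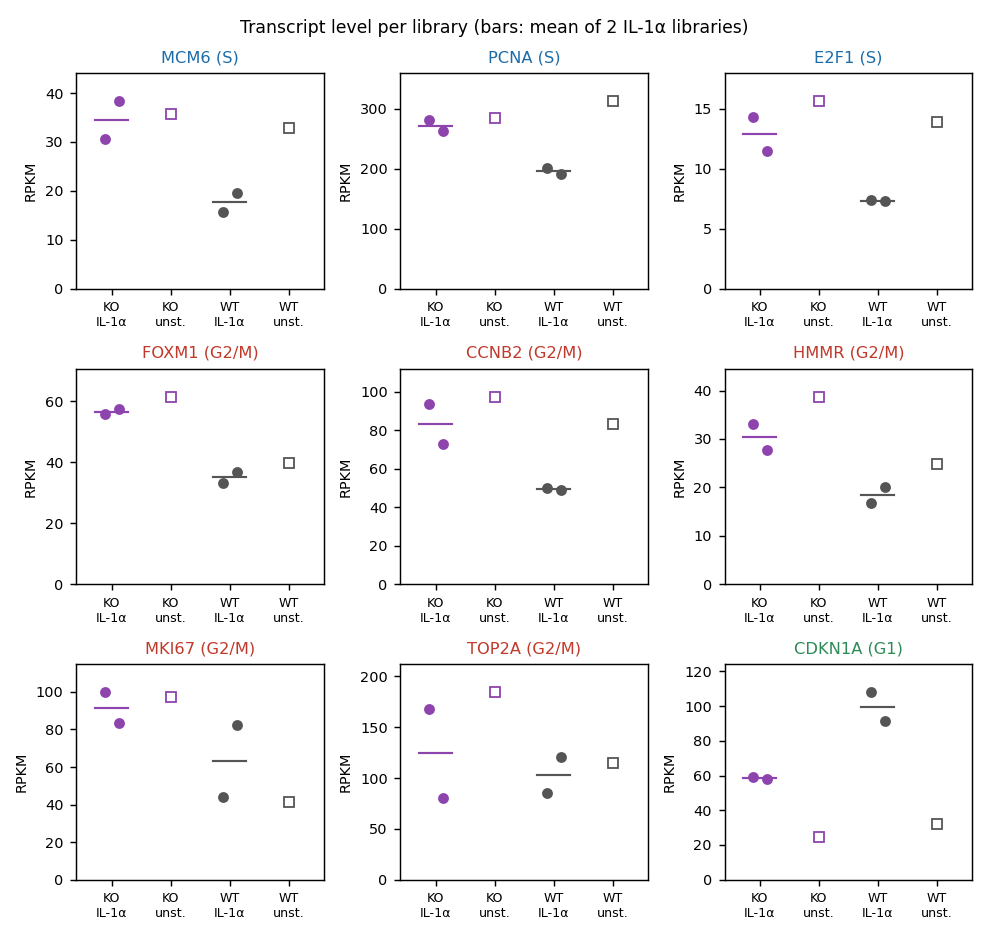
RPKM of 9 of the genes in each library (circles, IL-1α, with a bar at the mean of the 2; open squares, unstimulated, 1 library; KO left of WT). For MCM6, PCNA, E2F1 and CCNB2 the WT IL-1α libraries are the lowest and unstimulated WT is near the KO level, for FOXM1 and HMMR both WT groups are below KO, and CDKN1A is highest in the WT IL-1α libraries at 107.9 and 91.3 RPKM.

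CDKN1A, the gene of the CDK inhibitor p21 (chromosome 6, 36644237 to 36655116, plus strand in hg19), rose with IL-1α, the gene of the 60 that changed with it past the adjusted threshold in the additive fit with all libraries. Without KO IL-1α replicate 1 that fit called GINS2 as well. It read 59.2 and 58.2 RPKM in the KO IL-1α libraries and 24.9 RPKM in the unstimulated KO library, against 108 and 91.3 RPKM in the WT IL-1α libraries and 32.1 RPKM in the unstimulated WT library. Both IL-1α libraries of each genotype were above its unstimulated library, and both KO IL-1α libraries were below both WT IL-1α libraries. The additive fit gave a log2 IL-1α effect of 1.42 ± 0.16 (SE; limma, adjusted p = 0.00663), in a fit that called 0.905% of all genes as higher, and the adjusted p was 0.0821 without WT IL-1α replicate 2 and 0.0541 with the replicate number as a block. Within genotypes the response was 1.22 in KO (limma, adjusted p = 0.181) and 1.61 in WT (adjusted p = 0.0579). KO differed from WT by -0.75 ± 0.16 under IL-1α (limma, adjusted p = 0.179), by -0.36 without stimulation, and by -0.62 in the additive fit (adjusted p = 0.0687). The difference between the responses was -0.39 (limma interaction, adjusted p = 0.966).

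The other G1 genes differed less. CCND1, cyclin D1, read 212 and 231 RPKM in the KO IL-1α libraries and 220.1 RPKM in the unstimulated KO library, against 236 and 279.6 RPKM in the WT IL-1α libraries and 229 RPKM in the unstimulated WT library. The KO IL-1α libraries were both below the WT IL-1α libraries, by a log2 difference of -0.21 ± 0.18 (limma, adjusted p = 0.595), and CCND1 and CDKN1A were the 2 genes with that order, which 16.3% of all genes had. CDKN1B, the gene of p27, read 13.8 and 11.7 RPKM in the KO IL-1α libraries and 14.7 RPKM in the unstimulated KO library, against 13.4 and 13.6 RPKM in the WT IL-1α libraries and 18.4 RPKM in the unstimulated WT library. Its KO and WT IL-1α libraries overlapped, and the difference was -0.08.

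Without stimulation, with 1 library per genotype and so no test, 10 of the 60 were at least 1.5-fold higher in KO and none was 1.5-fold lower, against 9.71% and 13.4% of all genes. Of the 60, 47 lay above 0, as did 48.5% of all genes. The median log2 difference was 0.27 over S-phase genes, 0.34 over G2/M genes and -0.01 over all genes. Of the 10, 8 were G2/M genes: MKI67 (1.22), CENPE (0.91), CENPF (0.75), TOP2A (0.68), KIF11 (0.68), HMMR (0.63), FOXM1 (0.62) and TPX2 (0.62). The others were MCM10 (0.72) and MCM4 (0.69). The count was 16 after quantile normalization. It was 4 (GINS2, HMMR, MCM5 and MKI67) once the trend of the values with transcript length was taken out of each library. The shares of all genes in those settings are not given here. The S-phase, G2/M and all-gene medians were 0.37, 0.48 and 0.03 after quantile normalization. With the length trend removed they were 0.27, 0.36 and 0.01.

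Transcript length moved with this comparison. Members over 4 kb had a median log2 difference of KO from WT without stimulation of 0.58 in S phase (4 genes) and 0.72 in G2/M (6 genes), against 0.04 and -0.12 for members under 2 kb (6 genes each). Over all genes the same classes gave 0.23 and -0.30. The WT response to IL-1α, which uses the same unstimulated WT library, had a like pattern: over 4 kb its median was -0.16 in S phase, 0.15 in G2/M and 0.08 over all genes, and under 2 kb -0.59, -0.53 and -0.40. Under IL-1α the difference of KO from WT varied less with length, at 0.57 and 0.56 over 4 kb and 0.47 and 0.45 under 2 kb for S-phase and G2/M genes, and 0.15 and 0.03 for all genes. Spearman's rho with length across the 30 G2/M genes was 0.80 for the unstimulated comparison, 0.66 for the WT response and 0.15 for KO against WT under IL-1α. Across the 27 S-phase genes it was 0.44, 0.35 and 0.05. Over all 12925 genes the same values were 0.48, 0.43 and 0.15. These correlations are across genes, which are not independent replicates and share the same libraries.

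**Figure D4:**
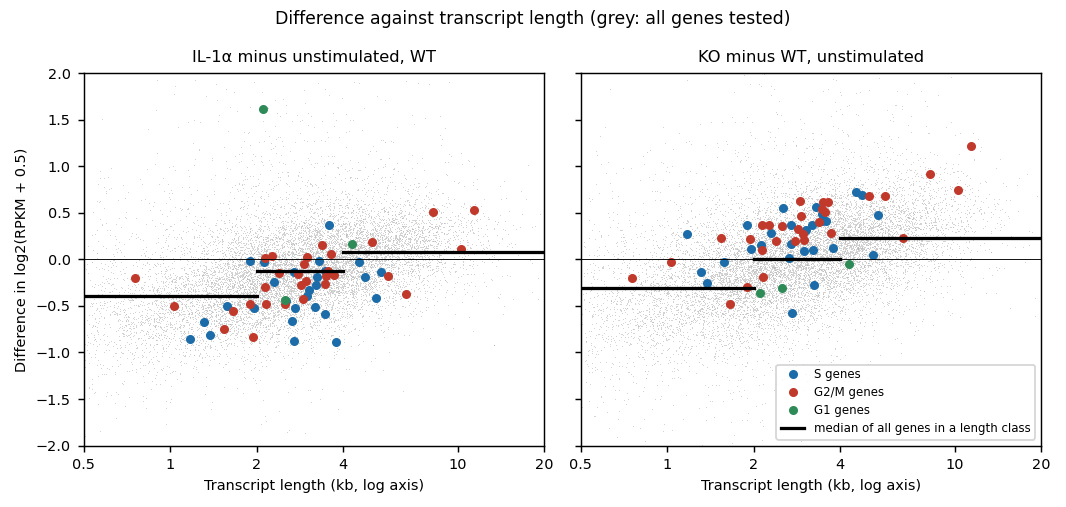
Difference in log2(RPKM + 0.5) against transcript length for the WT response to IL-1α (left) and for KO minus WT without stimulation (right), with the S-phase, G2/M and G1 genes in colour over all genes tested in grey; genes outside 0.5 to 20 kb or a difference of ±2 are not drawn. The black medians of all genes step up with length from -0.40 to 0.08 on the left and from -0.30 to 0.23 on the right, and the coloured points rise with them.

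No gene of the 60 differed between IL-1α and unstimulated cells past the adjusted threshold within either genotype (limma). In KO cells the median log2 response was -0.08 over S-phase genes and -0.03 over G2/M genes, against -0.02 over all genes, in a comparison that called 0.0696% of all genes. Over all 12925 genes the KO IL-1α libraries correlated with each other at 0.969 (Pearson), below the 0.982 of KO IL-1α replicate 1 with unstimulated KO. The WT IL-1α libraries correlated with each other at 0.985. At an unadjusted p under 0.05 CDKN1A was higher with IL-1α in KO cells, against 2.53% of all genes, and none of the 60 was lower, against 1.05%. For 28 of the 60 both KO IL-1α libraries lay below unstimulated KO, against 36.4% of all genes. In WT cells the median log2 response was -0.40 over S-phase genes (26 of 27 lower) and -0.18 over G2/M genes (21 of 30 lower), against -0.14 over all genes, of which 63.0% were lower and 0.217% were called. Median-of-ratios rescaling moved the median of all genes to -0.01, so the WT response is read relative to that median: -0.25 for S-phase and -0.04 for G2/M genes as deposited, and -0.24 and -0.02 after rescaling. These values depended on 1 library: they were -0.12 and 0.03 without WT IL-1α replicate 1, and -0.36 and -0.13 without replicate 2. At an unadjusted p under 0.05, 12 of the 60 were lower in WT IL-1α cells (7 of S phase, 5 of G2/M), against 13.4% of all genes, 1 (CDKN1A) was higher, against 4.69%, and 39 had both WT IL-1α libraries below unstimulated WT, against 54.3% of all genes.

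By role, the WT response relative to all genes was -0.34 for helicase genes, -0.34 for the mitotic cyclins and their regulators and 0.15 for the spindle and kinetochore group, and these differences were not tested. With the length trend removed the values were -0.30, -0.24 and 0.05. Without WT IL-1α replicate 1 they were -0.20, -0.39 and 0.27, and without replicate 2 they were -0.41, -0.28 and -0.0016. MCM6 and E2F1 had the lowest log2 responses of the 60 in WT, -0.88 and -0.88 (limma, adjusted p = 0.163 and 0.155), against -0.06 and -0.28 in KO. PCNA had -0.67 in WT (limma, adjusted p = 0.188) and -0.07 in KO, and in WT CDC25C had -0.84 and CCNB2 -0.74. With the length trend removed PCNA had -0.27 and CCNB2 -0.41 in WT. MKI67 had 0.53 in WT, which rested on replicate 2: it was 0.077 without that library and 0.98 without replicate 1.

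The difference between the genotypes' responses, tested as an interaction, passed for no gene of the 60 and for 0% of all genes. Its median was 0.22 over S-phase genes and 0.08 over G2/M genes, against 0.10 over all genes, and relative to all genes 0.12 and -0.02, or 0.11 and -0.03 after median-of-ratios rescaling. Without WT IL-1α replicate 1 the relative values were 0.01 and -0.08, and without replicate 2 they were 0.22 and 0.08. Without KO IL-1α replicate 1 they were 0.07 and 0.01, and without replicate 2 they were 0.19 and 0.01. At an unadjusted p under 0.05 it was higher for 3 of the 60, CCNE2 (0.91), MCM6 (0.82) and RFC4 (0.73), against 3.76% of all genes. It was lower for none, against 0.627%. Over the alternatives the values ran from 0.74 to 1.08 for CCNE2, 0.66 to 0.98 for MCM6 and 0.40 to 0.81 for RFC4. CCNE2 (mean 10.8 RPKM) overlaps INTS8 (13.0 RPKM) on the other strand, and RFC4 (32.1 RPKM) overlaps EIF4A2 (161 RPKM). The part of these neighbours was not tested. The comparison of KO with WT under IL-1α, the WT response and the interaction use the same 2 WT IL-1α libraries, so their values are not independent.

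The S-phase and G2/M medians were alike in most libraries. Relative to each gene's own mean, the median log2 level of the S-phase genes was 0.18 and 0.17 in the KO IL-1α libraries and 0.28 in unstimulated KO, against -0.37 and -0.20 in the WT IL-1α libraries and 0.11 in unstimulated WT. For the G2/M genes the values were 0.17, 0.21 and 0.23 in KO, against -0.37, -0.19 and -0.06 in WT. The S-phase median minus the G2/M median was between -0.04 and 0.04 in 5 libraries and 0.17 in unstimulated WT. The larger gap stood in a library that has no replicate.

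**Figure D5:**
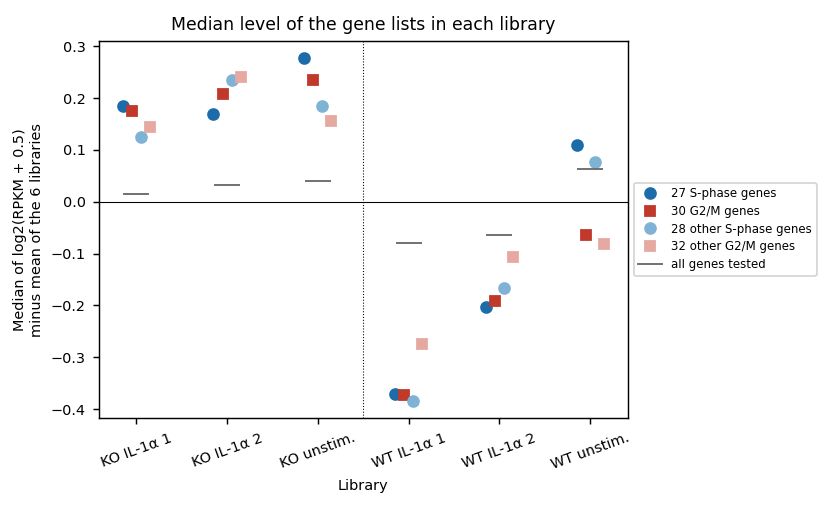
Median of log2(RPKM + 0.5) minus the gene's mean over the 6 libraries, for the S-phase and G2/M genes, for further genes of each phase, and for all genes tested (grey dashes), in each library with KO left of WT. The medians of the 27 S-phase and 30 G2/M genes lie together in 5 libraries and apart in unstimulated WT, at 0.11 and -0.06. Those of the further S-phase and G2/M genes were -0.38 and -0.27 in WT IL-1α replicate 1, and 0.08 and -0.08 in unstimulated WT.

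KO IL-1α replicate 2 was at least 1.5-fold below both other KO libraries for 5 of the 60, a share close to the 6.74% of all genes. They were CDC6, which loads the helicase, GINS2, MCM3, MCM5 and TOP2A. CDC6 and MCM3 are given with library values because of this gap, after their values were seen. CDC6 read 66.1 and 30.2 RPKM in the KO IL-1α libraries and 72.4 RPKM in the unstimulated KO library, against 40.7 and 52.1 RPKM in the WT IL-1α libraries and 58.1 RPKM in the unstimulated WT library. Its KO replicate 2 was the lowest of all 6 libraries, and its difference under IL-1α was -0.04, or 0.52 without that library. MCM3 read 67.6 and 37.3 RPKM in the KO IL-1α libraries, against 37.8 and 44.8 RPKM in the WT IL-1α libraries, and its difference was 0.71 without KO replicate 2. Without KO replicate 2, every remaining KO library exceeded every WT library for 41 of the 60, 17 of S phase and 24 of G2/M, against 24.7% of all genes. For MKI67 and CENPF WT IL-1α replicate 2 was at least 1.5-fold above replicate 1, a share close to the 3.44% of all genes. Of the 60, 48 were higher in WT IL-1α replicate 2, with a median log2 difference of 0.19 from replicate 1. Over all 12925 genes 6569 were higher in that library, with a median of 0.005.

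Further genes of the same phases, from the phase lists in common use for single cells, gave like values. Of 28 other S-phase genes 27 were higher in KO under IL-1α (median log2 0.46) and of 32 other G2/M genes 30 (median 0.36), against 61.1% of all genes, with none passing after adjustment. At an unadjusted p under 0.05 the counts higher in KO were 13 and 11, against 9.97% of all genes. Their most abundant members were the histone chaperone NASP (0.23) and the histone mRNA binder SLBP (0.01) in S phase, and TUBB4B (0.27), a tubulin, and CKS2 (0.23), a CDK subunit, in G2/M. Among 26 other genes of G1 control the median of KO against WT was 0.23 under IL-1α and 0.14 in the additive fit. Of these CDKN2B, the gene of the inhibitor p15, fell in KO by 0.88 in the additive fit (limma, adjusted p = 0.0325). That fit called 1.34% of all genes as higher and 1.32% as lower. Among 18 p53 target genes the same medians were 0.12 and 0.17. In the additive fit the antiproliferative BTG2 fell by 0.78 (limma, adjusted p = 0.0438) and the death receptor FAS rose by 0.79 (adjusted p = 0.0318).

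Recovered depth was 21889912 and 29769932 reads in the KO IL-1α libraries and 34966796 in unstimulated KO, against 16294019 and 18535538 in the WT IL-1α libraries and 16727747 in unstimulated WT, so KO libraries were deeper throughout, and the part of depth in the results was not tested. The median gene of the 60 had 2863 to 4854 reads in KO libraries and 1437 to 1917 in WT libraries, and the fewest were 63 reads for CDC25C. Of the 60, 12 overlap another tested gene in hg19, 11 of them on the other strand, and whether strand was used in counting is not given in the sources used here, so their values may include reads of the neighbour. All 10 keratinocyte markers were detected, at a summed 3565 to 4113 RPKM in KO and 5844 to 6896 RPKM in WT libraries. Of the 10, 5 (KRT14, KRT16, KRT17, SFN and DSG3) were lower in every KO library than in every WT library, against 8.86% of all genes. None was higher in every KO library, against 15.7% of all genes. The other 5 overlapped, among them KRT5 and TP63. The part of keratinocyte state in the cell-cycle values was not tested. Markers of fibroblasts (6), melanocytes (4) and leukocytes (6) summed to at most 1.27, 0.611 and 7.70 RPKM in KO and 2.59, 0.533 and 14.8 RPKM in WT. TYR and LYZ were at 0 in every library, and CD68, which many cell types express, gave most of the leukocyte sum.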

How the data were processed

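Stranded TruSeq mRNA libraries were prepared from total RNA isolated by TRIzol followed by RNeasy, per the labels' protocols. RPKM values per gene were computed by the authors and deposited as 1 table, and per the submitters' processing notes bcl2fastq 2.20.0.422, STAR and HOMER were used with hg19. Versions of STAR and HOMER, the settings of counting and its use of strand are not given in the sources used here. RPKM is scaled to each library's total, so a few abundant genes can shift all others. Reads were rebuilt from the steps of low values: 97.9 to 99.9% of values fell within 0.1 read of a whole number.

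The 12925 genes whose highest library reached 1 RPKM were tested as log2(RPKM + 0.5) with limma 3.58.1 (R 4.3.3) with a variance trend and Benjamini-Hochberg adjustment over all of them at 0.05, as the table holds no counts. A fold on this scale understates changes of low genes. Comparisons of groups used 1 fit with a mean per group (2 residual and 4.20 prior degrees of freedom), in which the single unstimulated libraries are assumed to vary like the IL-1α pairs. The additive fit had 3 residual and 5.01 prior degrees of freedom. The unstimulated comparison has 1 library per genotype and no test. The fits were also run on simulated reads with known changes. Those changes were larger than the phase medians here, so that run does not check differences of this size.

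Genes with every library's value are those that passed, the 5 largest differences and 3 highest means of each phase, and MKI67, PCNA, CCND1, CDKN1A, CDKN1B and MAPK14; of the other lists, those that passed or the 2 most abundant. The members and lists were chosen with earlier results of these data known. Alternatives were other pseudocounts, filters, scalings, removal of the length trend, no variance trend, voom weights, a replicate block and leaving out each IL-1α library; those for the order of libraries, the role medians and the medians relative to all genes were chosen after seeing the data. The replicate block set the IL-1α replicate 2 libraries against all others, so the unstimulated libraries shared a block with IL-1α replicate 1. Promoters came from RefSeq on GRCh38.p14, a different build from the hg19 of the deposited values.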

Additional observations from a re-analysis of the deposited data

How the results depend on the processing

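The adjusted calls changed with several settings. Shares of all genes called are given for the main setting only. The counts below therefore cannot show whether a setting called more of the listed genes in particular or more of all genes. The genotype count of the additive fit, 1 (FOXM1), was 0 with no filter on low values, 0 with no variance trend and 0 with the replicate block, 2 with the length trend removed (FOXM1, HMMR), 3 with 1 RPKM in at least 2 libraries (FOXM1, HMMR, MCM10), 6 with voom weights (these, CDKN1A, CENPE and MCM4), and 0 to 3 leaving out 1 library (3 without KO replicate 2: FOXM1, HMMR, MCM5). The IL-1α count of that fit, 1 (CDKN1A), was 0 with the replicate block and 0 to 2 leaving out 1 library. The count for IL-1α in WT, 0, was 1 (CDKN1A) with 1 RPKM in at least 2 libraries, median-of-ratios rescaling, quantile normalization or the length trend removed. Whether equal replicate numbers in the genotypes mark a shared batch is not known. Replicate 2 minus replicate 1 correlated at 0.01 between the genotypes over 12925 genes, and 2 pairs cannot decide it.

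The median difference of KO from WT under IL-1α was 0.36 for S-phase and 0.35 for G2/M genes after median-of-ratios rescaling, which moved the median of all genes to -0.01, and 0.34 for G2/M genes with the length trend removed; leaving out 1 library gave 0.34 to 0.52 for G2/M genes. The unstimulated count of 10 was 16 after quantile normalization and 4 with the length trend removed. The shares of all genes in those settings are not given here. Of 99 single-gene values 8 changed sign in some alternative. For KO against WT under IL-1α, leaving out 1 library moved 25 of the 60 genes by over 1.5 times or across 0. The other 35 were 15 of S phase, 19 of G2/M and CDKN1A. The 25 included POLA1 (0.20 to 0.71), CDC20 (0.014 to 0.55) and RRM2 (0.015 to 0.26). For IL-1α in WT, leaving out 1 library moved 33 of the 60. UBE2C with IL-1α in WT was -0.20 in the main setting, 0.037 after quantile normalization and 0.35 with the length trend removed. Leaving out 1 library gave -0.22 to 0.10 for MCM6 with IL-1α in KO, and for KO against WT under IL-1α -0.33 to 0.73 for TOP2A, -0.19 to 0.036 for CDKN1B, -0.14 to 0.71 for MCM3, -0.60 to 0.52 for CDC6, -0.19 to 0.47 for CCNE1 and -0.043 to 0.55 for CDC25A. The cause was not tested. With 2 libraries per IL-1α group and 1 per unstimulated group, a difference that missed the threshold is not shown to be absent.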
